A study of Mus musculus with 7 samples.

Results

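The interleukin-1 (IL-1) family genes Il1a, Il1b, Il1rn, Il1r1, Il1r2, Il1rap, Il18, Il18bp, Il18rap and Il36g were followed in neutrophils from acutely injured mouse livers. These 10 of the 16047 genes in the expression table were chosen by name. The table lists 9 of them by these symbols, and Il36g was matched to its entry Il1f9 through a RefSeq synonym. All 10 had a mean of at least 1 RPKM (a read count scaled by transcript length and by the number of mapped reads), so all were tested.

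The study examined whether hepatic neutrophils differ when Ly6Chi monocytes are kept out of the liver during acetaminophen-induced liver injury (AILI). Male C57BL/6 mice of 8 to 12 weeks were fasted for 12 h and given 300 mg/kg acetaminophen, and their livers were taken 24 h later. The 4 PBS mice (replicates 5 to 8) received phosphate-buffered saline, whereas the 3 MC-21 mice (replicates 2 to 4) received medium containing MC-21, a depleting antibody against CCR2, as 400 µL at 29 µg/mL from 12 h before the overdose and every 24 h. From each liver about 50000 CD11b+Ly6CloCX3CR1-GFP-Ly6G+ cells were sorted and their poly(A) RNA was sequenced from the 3′ end. All mice had AILI, no library came from an uninjured liver, and no control antibody was given to the PBS mice, so depletion of CCR2+ cells and injection of an antibody-containing medium cannot be told apart. The gate refers to a CX3CR1-GFP reporter, but the sources used here do not state which of these mice carried it.

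IL-1α, IL-1β, IL-18 and IL-36γ are agonist cytokines of this family, and IL-1β and IL-18 are made as precursors that inflammatory caspases can cleave. IL-1α and IL-1β bind IL-1R1, which then recruits the co-receptor IL-1RAP and signals through MyD88 to NF-κB, and IL-18 acts likewise through IL-18R1 and IL-18RAP. Signalling is held back by the receptor antagonist IL-1RN, which occupies IL-1R1 without triggering it, by the decoy receptor IL-1R2, which is abundant on neutrophils, and by the soluble IL-18 inhibitor IL-18BP.

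Promoter sequence is shown for Il1b, the most abundant member, and for Il1rn, Il1r2 and Il18rap, whose values did not overlap between the groups. Each is the 250 bases before a transcription start, 5′ to 3′ on the gene's own strand, from RefSeq on GRCm38.p6. Il1b lies at chr2:129371140-129371389 (minus strand), the first of 3 Il1rn starts at chr2:24336610-24336859 (plus), Il1r2 at chr1:40085843-40086092 (plus) and Il18rap at chr1:40515112-40515361 (plus). Capitals mark matches to 5 motifs searched on both strands, namely κB, C/EBP (TTGNNCAA), PU.1 (GAGGAAG), AP-1 (TGANTCA) and STAT (TTCNNNGAA).
Il1b: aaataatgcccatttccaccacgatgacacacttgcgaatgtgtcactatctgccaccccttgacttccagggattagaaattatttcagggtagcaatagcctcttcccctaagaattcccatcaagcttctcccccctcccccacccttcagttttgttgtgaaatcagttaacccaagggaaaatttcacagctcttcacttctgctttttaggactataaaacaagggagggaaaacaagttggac
Il1rn: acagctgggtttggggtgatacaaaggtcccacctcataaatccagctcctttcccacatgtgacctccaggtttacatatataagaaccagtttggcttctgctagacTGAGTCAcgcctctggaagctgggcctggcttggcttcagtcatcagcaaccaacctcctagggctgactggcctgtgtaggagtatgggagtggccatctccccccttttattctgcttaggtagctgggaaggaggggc
Il1r2: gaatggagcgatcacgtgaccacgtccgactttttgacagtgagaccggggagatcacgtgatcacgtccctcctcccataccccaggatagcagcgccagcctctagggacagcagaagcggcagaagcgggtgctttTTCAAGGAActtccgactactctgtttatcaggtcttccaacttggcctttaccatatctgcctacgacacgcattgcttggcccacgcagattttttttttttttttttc
Il18rap: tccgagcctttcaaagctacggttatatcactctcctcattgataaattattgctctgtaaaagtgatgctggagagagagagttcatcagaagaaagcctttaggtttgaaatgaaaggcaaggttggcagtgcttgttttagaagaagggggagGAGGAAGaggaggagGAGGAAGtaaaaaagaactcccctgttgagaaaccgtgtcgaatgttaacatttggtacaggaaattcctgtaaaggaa

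In Il1rn the AP-1 match TGAGTCA began 141 bases before the first start, and in Il1r2 the STAT match TTCAAGGAA began 111 bases before the start. The windows before Il1rn starts 2 and 3 held none of the 5 motifs. Which Il1rn start these cells used was not tested. The Il18rap window held the PU.1 letters GAGGAAG at 94 and again at 79 bases before the start, and the Il1b window held none of the 5 motifs. Among 32851 mouse promoter windows of this length, 6.75% held the AP-1 letters, 7.02% the STAT letters, 10.6% the PU.1 letters, 7.25% a κB match and 5.65% the C/EBP letters. No motif was present in more than 1 of the 4 windows shown. Among the members not shown, Il1a held AP-1 and PU.1 matches, Il36g a STAT match, and Il1r1 a κB match at start 2 only. The Il1rap, Il18 and Il18bp windows held none. These matches are descriptions of the letters and not of bound factors, and an absent motif says only that its letters are not in the window.

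Il1b was by far the most abundant IL-1 family transcript in both groups, and its levels overlapped between them. It was measured at 7174, 5868, 8005 and 6954 RPKM in PBS replicates 5 to 8, and at 7988, 6602 and 7658 RPKM in MC-21 replicates 2 to 4. The lowest value was in PBS replicate 6 and the highest in PBS replicate 7, so the MC-21 libraries lay inside the PBS range. Means were 7000.2 ± 879.8 RPKM (SD, n = 4) in PBS neutrophils and 7416 ± 724 RPKM (SD, n = 3) in MC-21 neutrophils. The difference on the log2(RPKM + 1) scale was 0.09 (SE 0.13, 95% confidence interval -0.21 to 0.39), with an adjusted p of 0.799 by limma, adjusted by the Benjamini-Hochberg method across 9594 genes. That interval leaves room for a ratio between 0.862 and 1.31. By mean RPKM, Il1b ranked 4 among the 16047 genes, and between 3 and 7 in single libraries, where it made up 1.22% to 1.63% of the summed RPKM. Il1b, on chromosome 2 at 129190306 to 129196875 (mm9, minus strand), overlaps the opposite-strand gene Gm14047, and whether counting used the strand is not given in the sources used here.

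The other agonists were far less abundant. Il36g, encoding IL-36γ, was measured at 36.4, 57.1, 68.3 and 51.2 RPKM in PBS replicates 5 to 8 and at 70.7, 57.2 and 53.5 RPKM in MC-21 replicates 2 to 4. The groups overlapped, with a log2 difference of 0.21 (SE 0.21, interval -0.28 to 0.69, limma adjusted p = 0.698). Il36g lies on chromosome 2 at 24041996 to 24049088 (mm9, plus strand).

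Il1a, encoding IL-1α, was close to the detection limit, at 1.28, 4.87, 3.05 and 1.41 RPKM in the PBS libraries and 9.08, 2.55 and 2.73 RPKM in the MC-21 libraries. These values stand for an estimated 7, 32, 16 and 11 reads against 64, 8 and 15 reads. MC-21 replicate 2 alone was above the PBS range. The log2 difference of 0.60 (SE 0.44, interval -0.40 to 1.59, limma adjusted p = 0.570) came to 0.11 without that library. Il1a lies 54.6 kb from Il1b, on chromosome 2 at 129125346 to 129135708 (mm9, minus strand), and overlaps the opposite-strand gene Gm14023.

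Il18 was the only member whose mean was lower in MC-21 neutrophils. Its values were 1.25, 4.16, 1.74 and 1.17 RPKM in PBS replicates 5 to 8 and 1.62, 0.726 and 0.830 RPKM in MC-21 replicates 2 to 4. These stand for an estimated 1 to 12 reads per library. That estimate used a fitted length of 863 bases, whereas the annotated transcript has 702, so it is uncertain. PBS replicate 6 was the highest and the groups overlapped, with a log2 difference of -0.51 (SE 0.33, interval -1.25 to 0.23, limma adjusted p = 0.511), which came to -0.23 without that library. Il18 lies on chromosome 9 at 50383378 to 50389942 (mm9, plus strand).

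**Figure D1:**
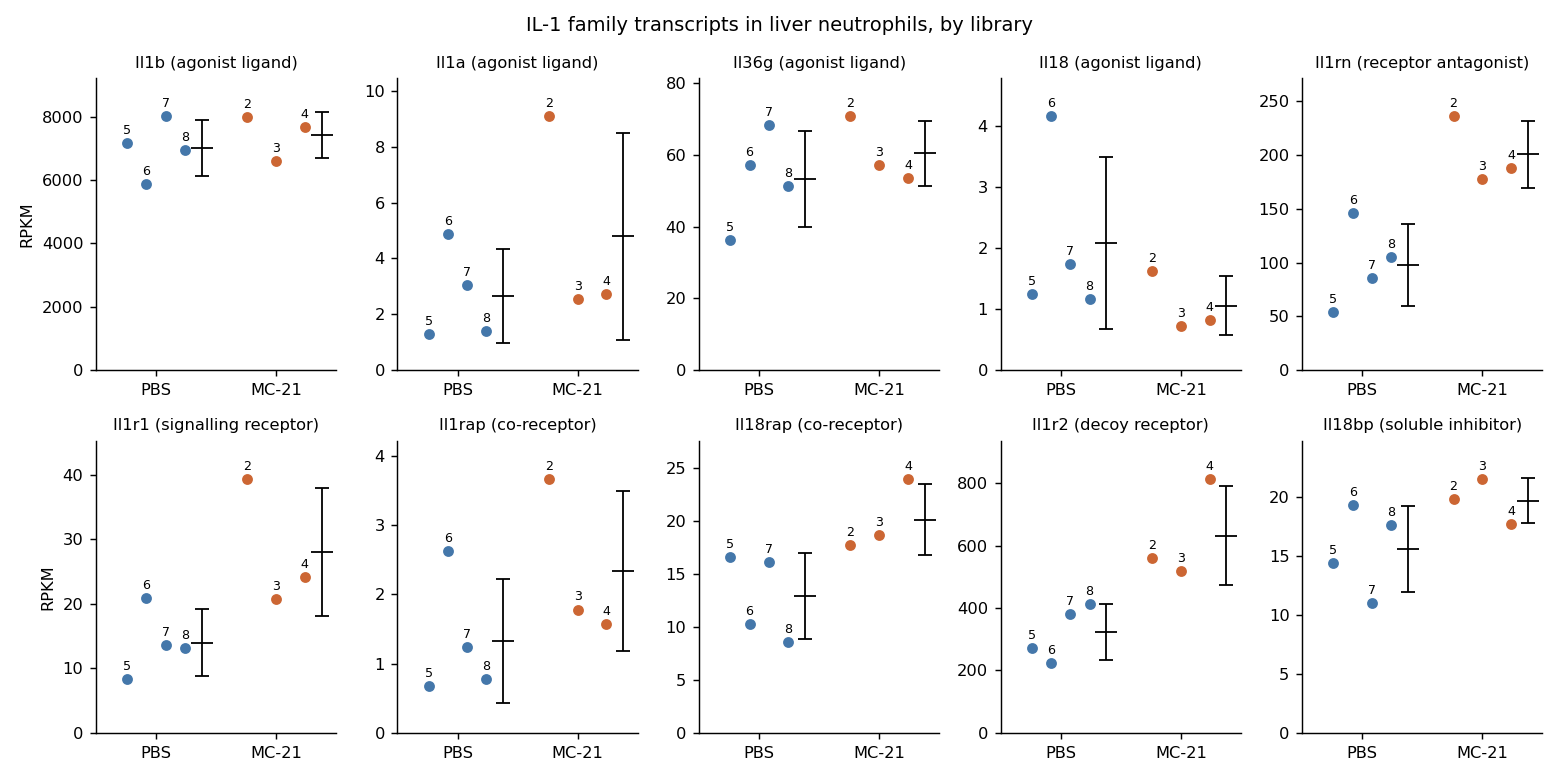
RPKM (vertical axis, from 0) of each IL-1 family transcript in every library, with replicate numbers beside the points and the mean ± SD of each group drawn to their right. PBS neutrophils are in blue (4 libraries) and MC-21 neutrophils in orange (3 libraries); the groups are apart for Il1rn, Il1r2 and Il18rap, whereas Il1b spans 5868 to 8005 RPKM in PBS and 6602 to 7988 RPKM in MC-21.

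The transcript of the receptor antagonist, Il1rn, was higher in every MC-21 library than in any PBS library, although the difference did not pass the adjusted threshold. It was measured at 54.4, 146, 86.1 and 105 RPKM in PBS replicates 5 to 8 and at 236, 178 and 188 RPKM in MC-21 replicates 2 to 4. The gap between the groups lay between PBS replicate 6 and MC-21 replicate 3, and the PBS libraries varied more, their highest value being 2.68 times the lowest against 1.33 times among MC-21 libraries. The mean was 97.8 ± 38.1 RPKM (SD, n = 4) in PBS neutrophils and 200.5 ± 31.0 RPKM (SD, n = 3) in MC-21 neutrophils. On the log2(RPKM + 1) scale the difference was 1.10 (SE 0.29, interval 0.46 to 1.75), a fold of 2.15 with an interval of 1.37 to 3.36, and the limma adjusted p was 0.144. Leaving out PBS replicate 6 brought the difference to 1.32 and the adjusted p to 0.0496. Il1rn lies on the plus strand of chromosome 2 at 24192373 to 24207014 (mm9), 143.3 kb beyond Il36g.

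Among the receptors and co-receptors, Il1r1 and Il18rap were higher in MC-21 libraries on average, and neither passed the adjusted threshold. Il1r1, the signalling IL-1 receptor, was measured at 8.33, 20.9, 13.6 and 13.1 RPKM in PBS replicates 5 to 8 and at 39.3, 20.7 and 24.1 RPKM in MC-21 replicates 2 to 4. The groups met where MC-21 replicate 3 fell just under PBS replicate 6. The log2 difference was 0.97 (SE 0.30, interval 0.29 to 1.65), with a limma adjusted p of 0.210. Il1r1 spans 40281925 to 40373043 on chromosome 1 (mm9, plus strand), 99.9 kb from Il1r2.

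Il18rap, the co-receptor for IL-18, was measured at 16.6, 10.3, 16.1 and 8.57 RPKM in PBS replicates 5 to 8 and at 17.7, 18.6 and 23.9 RPKM in MC-21 replicates 2 to 4. All MC-21 values were above all PBS values, the closest being PBS replicate 5 and MC-21 replicate 2. The log2 difference was 0.64 (SE 0.25, interval 0.08 to 1.19, limma adjusted p = 0.288). T and NK cells also express this gene, and their markers summed to 12.6 to 22.6 RPKM in PBS and 8.60 to 24.9 RPKM in MC-21 libraries, with 8 of the 14 at 0 in some library, among them Ncr1, Cd3g and Klrb1c. Their part in the Il18rap values was not tested. Il18rap spans 40572207 to 40608550 on chromosome 1 (mm9, plus strand).

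Il1rap, which both IL-1 and IL-36 receptors need in order to signal, was near the lower limit of the measurement. It was listed at 0.682, 2.62, 1.24 and 0.773 RPKM in the PBS libraries and at 3.66, 1.78 and 1.57 RPKM in the MC-21 libraries. The reads behind these values could not be estimated. The groups overlapped, with PBS replicate 6 above 2 of the 3 MC-21 libraries, and the log2 difference was 0.54 (SE 0.33, interval -0.20 to 1.27, limma adjusted p = 0.488). Il1rap lies on chromosome 16 at 26581790 to 26730203 (mm9, plus strand) and also overlaps an opposite-strand gene.

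The decoy receptor transcript Il1r2 was the second most abundant of the family, and the groups were apart. It was measured at 273, 224, 380.2 and 414 RPKM in PBS replicates 5 to 8 and at 561, 520.2 and 813 RPKM in MC-21 replicates 2 to 4. Every MC-21 library was above PBS replicate 8, the highest of the controls, and MC-21 replicate 4 was the highest of all. Means were 323 ± 89.0 RPKM (SD, n = 4) and 631 ± 158 RPKM (SD, n = 3). The log2 difference was 0.98 (SE 0.24, interval 0.44 to 1.52), a fold of 1.97 with an interval of 1.36 to 2.86, at a limma adjusted p of 0.117. Exact two-sided permutation tests, run for each of the 10 members, gave an unadjusted p of 0.0286 for Il1r2, the smallest value that the 35 possible splits of 7 libraries allow. The exact permutation p was 0.0571 for Il1rn, 0.0857 for Il18rap and for Il1r1, and 0.171 or more for the other 6 members. Il1r2, on chromosome 1 at 40141613 to 40182064 (mm9), overlaps the opposite-strand gene Gm16894.

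Il18bp, encoding the secreted IL-18 inhibitor, was measured at 14.4, 19.3, 11.0 and 17.6 RPKM in PBS replicates 5 to 8 and at 19.8, 21.5 and 17.7 RPKM in MC-21 replicates 2 to 4. MC-21 values were in the upper part of the PBS range or just above it, with a log2 difference of 0.34 (SE 0.20, interval -0.12 to 0.80, limma adjusted p = 0.480). Il18bp lies on chromosome 7 at 109163593 to 109166669 (mm9, minus strand).

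With limma, 0 of the 10 members had an adjusted p under 0.05, a mark reached by 60 of 9594 genes tested (0.625%, with 0.198% higher and 0.427% lower). At an unadjusted p under 0.05 there were 4 members, Il1rn, Il1r2, Il1r1 and Il18rap, all higher in MC-21 neutrophils, against 3.59% of all genes tested in that direction, 11.2% in the lower one and 14.7% in either. The groups did not overlap for 3 members, all higher in MC-21 neutrophils, against 3.10% of all genes in that direction, 10.2% in the lower one and 13.3% in either. Il1rn alone also had a change of at least 2-fold on the log2(RPKM + 1) scale, as did 2.70% of all genes tested, 1.02% higher and 1.68% lower. Because the genes were chosen with earlier results of these data known, these counts are descriptions.

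**Figure D2:**
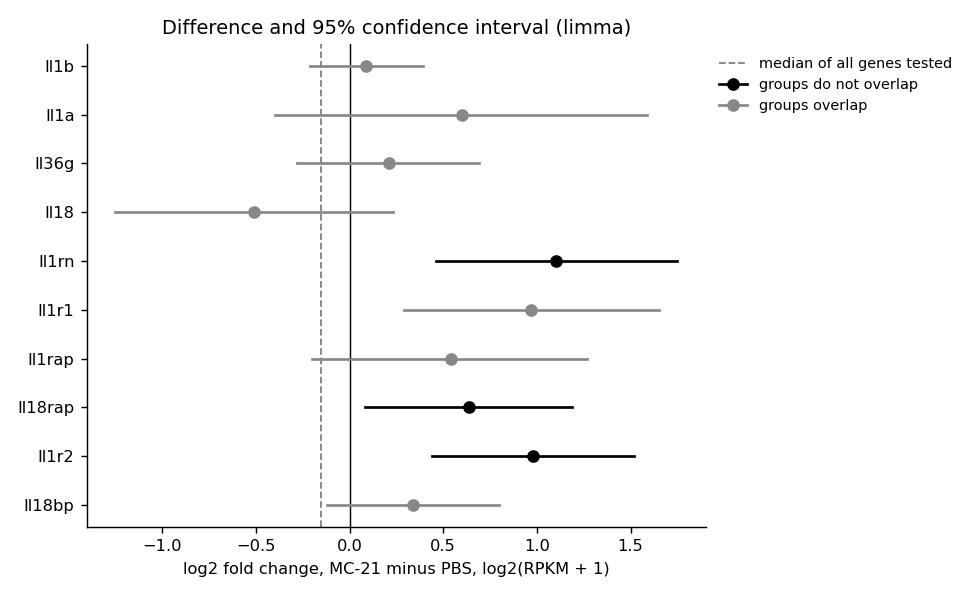
Difference in log2(RPKM + 1), MC-21 minus PBS, for each IL-1 family transcript, with its 95% confidence interval from limma; black marks transcripts whose groups do not overlap and the dashed line is the median of all genes tested, -0.15. The intervals of Il1rn, Il1r1, Il1r2 and Il18rap lie above 0, and those of the other members include 0.

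Over all genes tested the median difference was -0.15 and 69.4% of genes were lower in MC-21 neutrophils, whereas the members had a median of 0.57, with 9 above 0 and 1 below. Relative to the shift of all genes the differences were 1.25 for Il1rn, 1.13 for Il1r2, 1.11 for Il1r1, 0.78 for Il18rap and 0.23 for Il1b. Only 0.876% of genes tested had a larger difference than Il1rn, 1.20% than Il1r2, 1.24% than Il1r1 and 2.66% than Il18rap. For Il1b the share was 21.4%, and 87.5% of genes were above Il18.

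Levels were compared between genes on the RPKM scale, that is, per length, in libraries read from the 3′ end. In PBS neutrophils the order of mean RPKM was Il1b, Il1r2, Il1rn, Il36g, Il18bp, Il1r1, Il18rap, Il1a, Il18 and Il1rap. Libraries of neighbouring genes overlapped for Il1rn and Il36g, Il18bp and Il1r1, Il1r1 and Il18rap, Il1a and Il18, and Il18 and Il1rap. In MC-21 neutrophils Il1rn and Il36g no longer overlapped, and Il1r1 and Il18rap came before Il18bp with overlapping libraries. Il1b supplied 91.9% to 94.6% of the family's summed RPKM in PBS libraries and 87.2% to 89.3% in MC-21 libraries. The share of Il1r2 was 3.53% to 5.47% in PBS and 6.27% to 9.25% in MC-21 libraries. Neither range overlapped between the groups, and neither share was tested. Shares of the same sum depend on each other. The level of Il1b itself overlapped, with means of 7000.2 RPKM in PBS and 7416 RPKM in MC-21 neutrophils.

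Each inhibitor was also set against its partner within the same library. On the RPKM scale, Il1b exceeded Il1rn 132, 40.3, 93.0 and 66.1 times in PBS replicates 5 to 8. In MC-21 replicates 2 to 4 it did so 33.9, 37.2 and 40.7 times. PBS replicate 6 lay among the MC-21 libraries, and the other 3 PBS libraries were above them. As log2 of the Il1rn to Il1b ratio of (RPKM + 1) values, the means were -6.22 ± 0.72 (SD, n = 4) and -5.21 ± 0.13 (SD, n = 3).

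The decoy receptor was above the signalling receptor in every library. Il1r2 exceeded Il1r1 by a log2 ratio of 4.87, 3.36, 4.71 and 4.88 in PBS replicates 5 to 8 and of 3.80, 4.59 and 5.02 in MC-21 replicates 2 to 4. The groups overlapped and their means of 4.46 ± 0.73 (SD, n = 4) and 4.47 ± 0.62 (SD, n = 3) differed by 0.01. For Il18bp to Il18 the log2 ratio was 1.97 to 3.11 in PBS and 2.99 to 3.71 in MC-21 libraries, and for Il1rn to Il1a it was 4.43 to 5.46 and 4.55 to 5.66. Both overlapped, and both rest on the few reads of Il18 and Il1a.

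**Figure D3:**
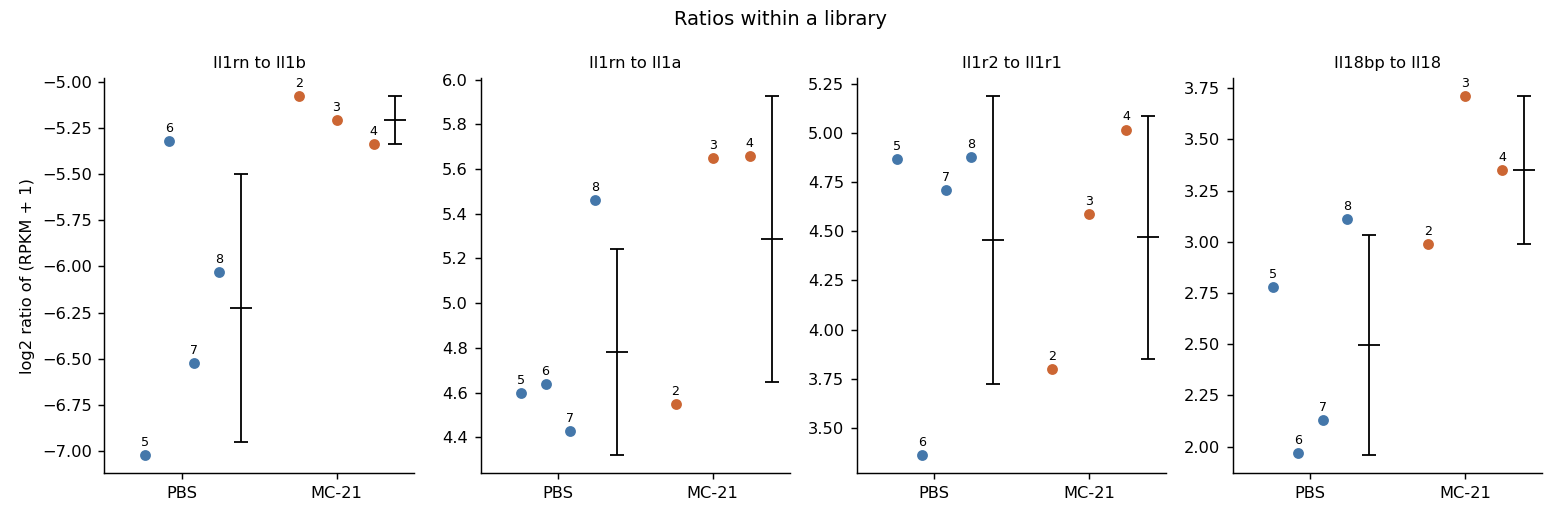
Log2 ratio of (RPKM + 1) values within each library (vertical axes, which do not start at 0) for Il1rn to Il1b, Il1rn to Il1a, Il1r2 to Il1r1 and Il18bp to Il18, with replicate numbers beside the points and mean ± SD of each group to their right. PBS (blue) and MC-21 (orange) libraries overlap in all 4 ratios; for Il1rn to Il1b the MC-21 libraries span -5.34 to -5.08 and the PBS libraries -7.02 to -5.32.

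Single libraries were high or low across several members. PBS replicate 6 was the highest PBS library for 6 of the 10 members and MC-21 replicate 2 the highest MC-21 library for 7, while PBS replicate 5 was the lowest PBS library for 5. MC-21 replicate 3, lowest of its group for 6 members, was also the shallowest, at an estimated 1.59 reads for each RPKM in a transcript of 1 kb against up to 3.96 reads in PBS replicate 8. Each group rests on 3 or 4 mice, so the differences carry this spread between mice.

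The cells carried neutrophil transcripts at high levels. The 15 neutrophil markers summed to 18863 to 31992 RPKM in PBS and 28836 to 42446 RPKM in MC-21 libraries. Much of this was S100a9, at 12275 to 20590.2 RPKM in PBS and 18142 to 25041 RPKM in MC-21 libraries. PBS replicate 6 had the lowest sum. Of the 15 markers, 1 rose at a limma adjusted p under 0.05, as did 0.198% of all genes tested. Monocyte and macrophage markers moved with the groups as well. Their summed level was 2098 to 2391 RPKM in PBS and 1141 to 1636 RPKM in MC-21 libraries. The highest value of a single gene in this list was 1674 RPKM, so a single gene can make up much of a sum. Of 19 tested, 17 were lower, as were 69.4% of all genes tested. At a limma adjusted p under 0.05 there were 7 that fell, as did 0.427% of all genes tested. Ccr2, Mertk and Ms4a7 were at 0 in some libraries. Kupffer cell markers summed to 66.6 to 97.5 RPKM in PBS and 43.8 to 73.2 RPKM in MC-21 libraries, with Vsig4 and Folr2 at 0 in some. Hepatocyte markers summed to 375 to 788 and 359.6 to 563 RPKM, with PBS replicate 6 the highest, and endothelial markers to 1391 to 2944 and 1521 to 2455 RPKM. The part of these other cells in the members' values was not tested, and in bulk RNA fewer cells of a type and less RNA per cell cannot be told apart.

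Il1r2, Il1r1 and Il18rap lie on chromosome 1 in one run of IL-1 receptor genes of 467 kb in mm9, together with Il1rl2, Il1rl1 and Il18r1. The 3 inner genes of that run were at or near 0. Il1rl2, the IL-36 receptor, was listed at 0 in all libraries but MC-21 replicate 4, with 0.553 RPKM. Il1rl1, the IL-33 receptor, ranged from 0.142 to 0.592 RPKM in PBS and from 0.0507 to 0.513 RPKM in MC-21 libraries. Il18r1, the ligand-binding partner of Il18rap, was at 0.151, 0.377, 0.315 and 0 RPKM in PBS replicates 5 to 8 and at 0.703, 0.526 and 0.903 RPKM in MC-21 replicates 2 to 4. These groups did not overlap, but the gene was under the limit of a mean of 1 RPKM and was not tested.

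**Figure D4:**
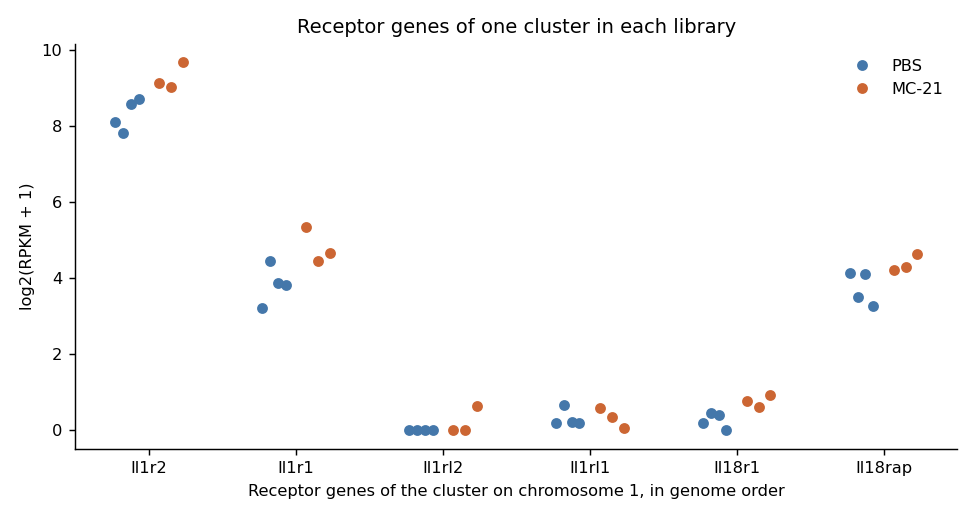
Log2(RPKM + 1) of 6 receptor genes in the order in which they lie on chromosome 1, for each PBS (blue) and MC-21 (orange) library. The outer genes Il1r2, Il1r1 and Il18rap are expressed and tend higher in MC-21 libraries, whereas Il1rl2, Il1rl1 and Il18r1 stay below 1 RPKM.

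Of other family genes, Il33, an alarmin cytokine, was at 0.417 to 1.30 RPKM in PBS and 0 to 0.241 RPKM in MC-21 libraries, also too low to be tested. Sigirr, an inhibitory receptor of the family, had means of 2.39 ± 1.18 RPKM (SD, n = 4) and 1.10 ± 0.798 RPKM (SD, n = 3), with a log2 difference of -0.71 (limma adjusted p = 0.403). Il36a, Il36b, Il36rn, Il1f10, Il1rapl1 and Il1rapl2 could not be matched to an entry of the expression table by symbol or RefSeq synonym, so they were not analysed here.

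Genes that act around these receptors were read from 4 lists, and no gene of any list passed the adjusted threshold in either direction (0 of 13, 21, 14 and 18 tested). At an unadjusted p under 0.05, where 3.59% of all genes tested were higher and 11.2% lower, the list of ligand processing and release gave 3 higher (Mefv, S100a8 and S100a9) and 1 lower (Capn2) of 13 tested, with a median difference of 0.08. S100a8 and S100a9 encode calcium-binding alarmins rather than processing enzymes and are also among the neutrophil markers. Casp1, encoding the caspase that cleaves the IL-1β precursor, was under the limit, at 0 to 1.59 RPKM in PBS and 0 to 0.740 RPKM in MC-21 libraries. The inflammasome sensor Nlrp3 was measured at 44.4 to 65.1 RPKM in PBS and 59.0 to 81.9 RPKM in MC-21 libraries, which overlapped. Signalling genes from Myd88 to Rela gave 1 higher, Peli1, and 0 lower of 21 tested, near the 3.59% of all genes that were higher, with a median of -0.08. Of the names in these sentences, all were singled out after their values were seen.

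Feedback inhibitors of the pathway gave 4 higher and 0 lower of 14 tested at an unadjusted p under 0.05, against 3.59% and 11.2% of all genes tested, with a median of 0.02. Of these 4, 1 was also at least 2-fold higher, as were 1.02% of all genes. That gene was Socs1, a suppressor of cytokine signalling, at 8.91, 29.8, 8.99 and 10.2 RPKM in PBS replicates 5 to 8 and 46.8, 35.7 and 27.7 RPKM in MC-21 replicates 2 to 4. PBS replicate 6 again reached the MC-21 range, and the log2 difference was 1.44 (SE 0.39, limma adjusted p = 0.155). The other 3, named after their values were seen, were Tnfaip3, Zc3h12a and Nfkbia, all NF-κB pathway inhibitors. Zc3h12a, encoding the RNase Regnase-1, was at 28.4 to 48.7 RPKM in PBS and 58.2 to 78.2 RPKM in MC-21 libraries, and Tnfaip3, encoding A20, at 18.3 to 36.4 and 45.4 to 57.6 RPKM. Neither overlapped between the groups, at limma adjusted p-values of 0.109 and 0.156.

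Genes induced by IL-1 in many cells had the highest median of the 4 lists, 0.41, with 7 of 18 higher and 0 lower at an unadjusted p under 0.05, against 3.59% and 11.2% of all genes tested. Of these, 4 were also at least 2-fold higher, as were 1.02% of all genes. Nos2, encoding inducible nitric oxide synthase, was at 1.60, 1.75, 1.49 and 2.12 RPKM in PBS replicates 5 to 8 and 7.30, 4.24 and 20.2 RPKM in MC-21 replicates 2 to 4. The groups did not overlap, and the log2 difference of 1.83 (SE 0.40) had a limma adjusted p of 0.0836. Cxcl3, a neutrophil-attracting chemokine, did not overlap either, at 145 ± 49.9 RPKM (SD, n = 4) and 294 ± 60.9 RPKM (SD, n = 3), a log2 difference of 1.06 (limma adjusted p = 0.144). Ccl2, the ligand of CCR2, ranged from 111 to 435 RPKM in PBS and 273 to 1201 RPKM in MC-21 libraries, with overlap (log2 difference 1.26, limma adjusted p = 0.336). Saa3, an acute-phase protein gene, ranged from 25.5 to 81.8 and from 48.0 to 201 RPKM, also with overlap (1.31 on the log2 scale, limma adjusted p = 0.274). Of the 18 tested targets, 12 had a difference above 0 and the rest were below it, whereas 69.4% of all genes tested were below 0. The targets below 0 included Tnf (-0.43, limma adjusted p = 0.364) and Steap4 (-0.45, limma adjusted p = 0.425), named after their values were seen.

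**Figure D5:**
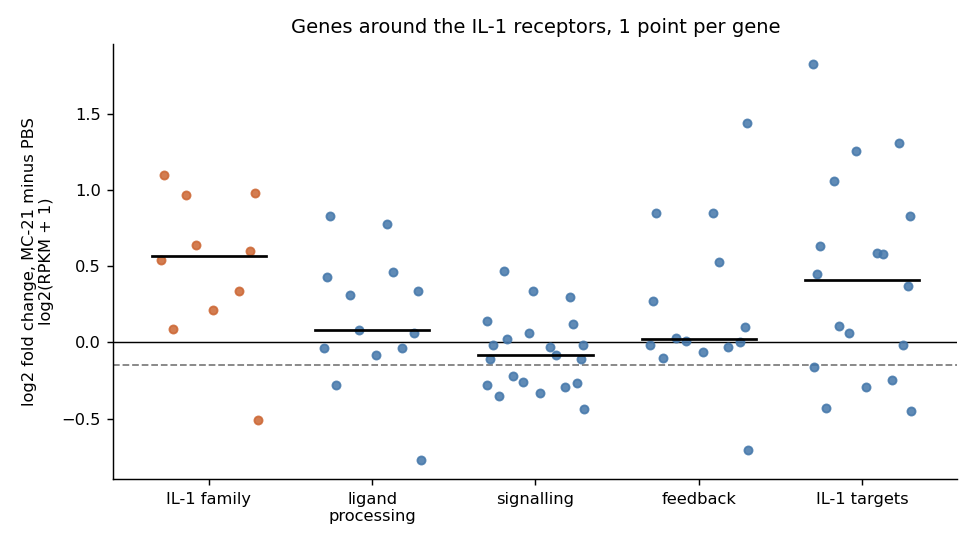
Difference in log2(RPKM + 1), MC-21 minus PBS, of every tested gene (1 point per gene, spread sideways for sight only) in the IL-1 family and in the 4 lists of genes around it. Black bars are list medians, 0.57 for the IL-1 family, 0.08 for ligand processing, -0.08 for signalling, 0.02 for feedback and 0.41 for IL-1 targets, and the dashed line is the median of all genes tested, -0.15.

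The genes whose pattern over the 7 libraries was closest to that of a member were found by the root mean square difference between log2(RPKM + 1) values, each gene centred on its own mean, among the 5859 genes that averaged 5 RPKM or more. For Il1rn they included C3, encoding complement component 3, at 0.115 and Il1r1 at 0.184, against a median of 0.771 over all genes compared. C3 was at 37.0 ± 15.3 RPKM (SD, n = 4) in PBS and 82.2 ± 13.7 RPKM (SD, n = 3) in MC-21 neutrophils. For Il1r2 the closest genes were farther away, Jdp2 at 0.254 and Smap2 and Csrnp1 at 0.262. For Il1b, which varied little, they were Vhl and Ifrd1 at 0.074 and Atf4 at 0.077. The same 7 libraries gave all of these values, so shared depth and composition enter each of them.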

How the data were processed

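Poly(A) RNA of sorted neutrophils was read from the 3′ end. Per the submitters' processing notes, reads were aligned to mm9 with HISAT 0.1.5 and quantified in Partek 6.6. The authors deposited RPKM values for 16047 genes in 7 libraries. RPKM divides by transcript length, which 3′ reads do not scale with. The transcript annotation and the handling of strand, multi-mapped reads and barcodes are not given in the sources used here. All sample columns were used (0 left out). Each library is 1 mouse. Depth was estimated from the steps between low values. The estimate is approximate, since 51.7% of the 631 genes used gave 1 common depth. Whole reads were accepted within 0.05 of a whole number. For each low member the shortest transcript length that gave whole reads in every library was used, and none was found for Il1rap.

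The 9594 genes that averaged 1 RPKM or more were compared as log2(RPKM + 1) with limma 3.58.1 in R 4.3.3 (trended variance, two-sided), adjusted by Benjamini-Hochberg over all of them. This replaced the study's unpaired test. The fit was tested on simulated data in which 200 genes were changed by 2 on the log2 scale. It recovered 174 of them and called 6 unchanged genes. Smaller changes, such as those of the members, were not simulated. Alternatives were a pseudocount of 0.1 RPKM, no filter, a filter of 5 RPKM, median centring, quantile normalization, no trend, and leaving out each library. Exact permutation tests on log2(RPKM + 1) had been planned only for members under the filter. They were run for every member instead, so their p-values are descriptions. Coordinates are mm9 (GENCODE M1), and promoters are RefSeq on GRCm38.p6. Figures were drawn with matplotlib 3.10.9.

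The 10 members, the 5 pathway lists (other family genes, processing, signalling, feedback, targets) and the 11 marker lists were chosen with earlier results of these data known. Every member is reported. From the pathway lists, genes were named at an adjusted p under 0.05, or at an unadjusted p under 0.05 with at least 2-fold, and other family genes wherever above 0. The 3 genes most like Il1b, Il1rn and Il1r2 were named by distance, except 1 gene that is not reported here. Other names were added after their values were seen. B cell, dendritic cell, stellate cell, eosinophil, and mast cell and basophil markers had 0 genes past the adjusted threshold and summed to at most 103 RPKM in any library.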

Additional observations from a re-analysis of the deposited data

Results flagged for a closer look

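In PBS replicate 6 the log2 ratio of Il1r2 to Il1r1 was 3.36, whereas the other 3 PBS libraries lay between 4.71 and 4.88. Its gap to the nearest library was 0.886 of the range of the group, past Dixon's 95% critical value for 4 samples. The same library had the lowest Il1r2 value of the PBS group, 224 RPKM, and the highest Il1r1 value, 20.9 RPKM. It also had the lowest neutrophil marker sum of all libraries, 18863 RPKM, of which S100a9 alone was 12275 RPKM. Csf3r (269.6 RPKM) and Ly6g (16.3 RPKM) were lowest there too, but Cxcr2 (221 RPKM) was the highest of the PBS libraries. Its hepatocyte marker sum, 788 RPKM, was the highest of all libraries. The part of these markers in the ratio was not tested. This was 1 of 14 groups of 4 values examined, of which chance marks about 1 in 20.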

How the results depend on the processing

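No paired analysis was possible because the PBS libraries (replicates 5 to 8) and the MC-21 libraries (replicates 2 to 4) share no replicate number. Of 127 member values under 13 alternatives, 126 kept their direction and their side of the adjusted threshold and 0 reversed. The other was Il1rn without PBS replicate 6, at 1.32 (limma adjusted p = 0.0496), so members past the adjusted threshold numbered 0 to 1 when single libraries were left out. Because no member was past that threshold in the main fit, staying on its side says little about stability. Members with an unadjusted p under 0.05 by limma numbered 4, but 5 with median centring, 6 with quantile normalization, and 3 to 4 with single libraries left out. Il18rap was not among them without MC-21 replicate 4, PBS replicate 6 or PBS replicate 8, nor Il1r1 without MC-21 replicate 2. Il1a, Il18 and Il1rap gave no value under the 5 RPKM filter. Members with an unadjusted p under 0.05 and at least 2-fold numbered 1, but 3 with median centring, 2 with a pseudocount of 0.1 or quantile normalization, and 0 (without PBS replicate 5) to 3 (without MC-21 replicate 3) with single libraries left out. All genes past the adjusted threshold numbered 60 (19 higher, 41 lower), but 4 with no filter, and 9 (without PBS replicate 8) to 102 (without PBS replicate 6) with single libraries left out. That split was 44 higher and 30 lower with median centring and 26 and 29 with quantile normalization. All genes with an unadjusted p under 0.05 and at least 2-fold numbered 259 (98 higher, 161 lower), but 153 with the 5 RPKM filter, 433 with a pseudocount of 0.1, and 230 to 365 with single libraries left out, and split 148 to 98 with median centring and 133 to 100 with quantile normalization. For the pathway lists, genes past the adjusted threshold numbered 0, or 0 to 1 with single libraries left out (Nos2 without MC-21 replicate 3, adjusted p = 0.0448, and Socs1 without PBS replicate 6, adjusted p = 0.0127). Genes with an unadjusted p under 0.05 and at least 2-fold numbered 5, but 7 with median centring, 3 with no filter and 2 (without MC-21 replicate 4) to 5 with single libraries left out. The 4 within-library ratios moved by less than the spread between replicates under all alternatives run. Il1a and Il18 rest on few reads, and the reads of Il1rap could not be estimated.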
